A study of Rattus norvegicus with 14 samples.

Results

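Matrix metalloproteinases (MMPs) are zinc-dependent proteases that cut the collagens, elastin, proteoglycans and glycoproteins of the extracellular matrix, and tissue inhibitors of metalloproteinases (TIMPs) bind and block them. Most MMPs are secreted as inactive precursors, so that messenger RNA tells of the supply of enzyme and not of its activity. In the artery wall smooth muscle cells, fibroblasts and macrophages make them, and they take part in the remodelling of the wall. Here 10 genes of this system were followed in the abdominal aorta of rats, of 19357 genes on the array. The members were chosen by name. They are 7 MMPs, Mmp2, Mmp3, Mmp9, Mmp12, Mmp13, Mmp14 and Mmp19, and 3 inhibitors, Timp1, Timp2 and Timp3, and all 10 were measured, by 24 to 41 probes per gene.

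RNA of the whole abdominal aorta of 14 outbred Wistar rats was hybridised to Affymetrix rat gene arrays, 1 array per animal. ExpPE rats (n = 5) were pregnant rats with experimental preeclampsia, infused with lipopolysaccharide (LPS, a bacterial cell wall component) at 1 µg/kg in 2 ml saline over 1 h on day 14 of pregnancy. Pr rats (n = 5) were pregnant and NPr rats (n = 4) non-pregnant, taken on the day of diestrus, and both received the saline alone. All 14 animals carried a cannula in the jugular vein, and the aortas of ExpPE and Pr rats were taken on day 20. Non-pregnant rats with LPS were not analysed here, so an action of LPS outside pregnancy cannot be told apart from its action in pregnancy. Levels are given as log2 intensity after robust multichip average (RMA) normalization, on which 1 unit is a doubling. The level of a gene depends on its probes, so levels were compared between rats and not between genes. The 1186 olfactory, vomeronasal, taste and trace amine receptor genes of the array, which most tissues outside the sense organs use little, had a median of 2.66 and a 95th percentile of 3.90, and this 95th percentile is called the background here.

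The deposited tables differ in which arrays they call ExpPE and Pr. Both tables hold the same intensities, but the 5 arrays marked LPS in the column names of one bear titles of pregnant rats in the other, and the 5 pregnant arrays marked saline bear titles of preeclamptic rats. The column names were followed. Under the titles every ExpPE vs. Pr difference below changes its sign and the comparisons of ExpPE and of Pr with NPr exchange their names, while the NPr arrays stay as they are. Animals were numbered within a group in the order of the table. Array medians lay between 5.58 and 5.67. Marker means of smooth muscle (up to 11.71), adventitial fibroblasts (9.97 to 10.95) and endothelium (7.59 to 8.34) were above the background in all 14 arrays, as in an aorta. Those of adipocytes (8.81 to 10.97) and red cells (7.63 to 11.26) were above it in all 14 as well. ExpPE animals 1 and 2, Pr animal 1 and NPr animal 3 also had high skeletal muscle fibre markers (means of 8.37 to 11.5, against 4.66 to 7.60 in the other 10 arrays). In ExpPE animals 1 and 2 the markers of sympathetic neurons and chromaffin cells were also high (9.09 and 8.05, and at most 6.35 elsewhere). Pr animal 5 had a high mean of the B cell markers (6.08, and at most 4.44 elsewhere). In whole tissue fewer cells of a type and less RNA per cell cannot be told apart.

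Mmp3 (stromelysin-1, which cuts proteoglycans, laminin and fibronectin and activates other MMP precursors) was far higher in both groups of pregnant rats. Its log2 intensity was 5.37, 7.18, 5.93, 6.13 and 7.11 in ExpPE rats 1 to 5. It was 6.48, 7.21, 7.39, 7.17 and 5.25 in Pr rats 1 to 5, and 4.03, 3.38, 4.12 and 3.56 in NPr rats 1 to 4. Every pregnant rat was above the highest NPr rat, and 2 of the 4 NPr rats were at or below the background. ExpPE animal 1 and Pr animal 5 were the lowest of the pregnant rats.

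In ExpPE vs. NPr Mmp3 rose by 2.58 on the log2 scale (SE 0.44, 95% interval 1.64 to 3.51), which is 5.96-fold (3.12 to 11.4), with an adjusted p of 0.0357. In Pr vs. NPr it rose by 2.93 (SE 0.44, interval 1.99 to 3.86), 7.61-fold (3.98 to 14.5), with an adjusted p of 0.00798. These p-values come from limma with Benjamini-Hochberg adjustment over all genes, and both comparisons share the 4 NPr rats. The order of the group means was Pr 6.70 ± 0.88, ExpPE 6.35 ± 0.78 and NPr 3.77 ± 0.36 (SD). Between ExpPE and Pr the ranges overlapped. The ExpPE minus Pr difference of -0.35 (SE 0.41, interval -1.23 to 0.53, adjusted p = 0.752) was smaller than the spread of either group, and the interval leaves room for a level 0.426 to 1.44 times that of Pr. It was -0.11 without ExpPE animal 1 and -0.71 without Pr animal 5 (unadjusted p = 0.0573, adjusted p = 0.528). Because the NPr level lies at the background, the fold is inexact. With 16 added to each intensity before the log2, the differences were 1.73 in ExpPE vs. NPr (adjusted p = 0.213) and 2.04 in Pr vs. NPr (adjusted p = 0.0360).

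The adjusted p of Mmp3 in ExpPE vs. NPr was near the threshold of 0.05. Leaving out single rats kept the difference between 2.37 and 2.82, but the adjusted p ranged between 0.00836 and 0.205. It was above 0.05 without any 1 of ExpPE animals 2, 3, 4 and 5, Pr animals 1, 2 and 4, or NPr animals 1, 2, 3 and 4. In Pr vs. NPr it stayed between 0.000740 and 0.0472, with differences of 2.75 to 3.29. Without the 4 fibre-rich arrays Mmp3 was 2.74 higher in ExpPE vs. NPr (adjusted p = 0.142) and 3.10 higher in Pr vs. NPr (adjusted p = 0.0379).

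**Figure D1:**
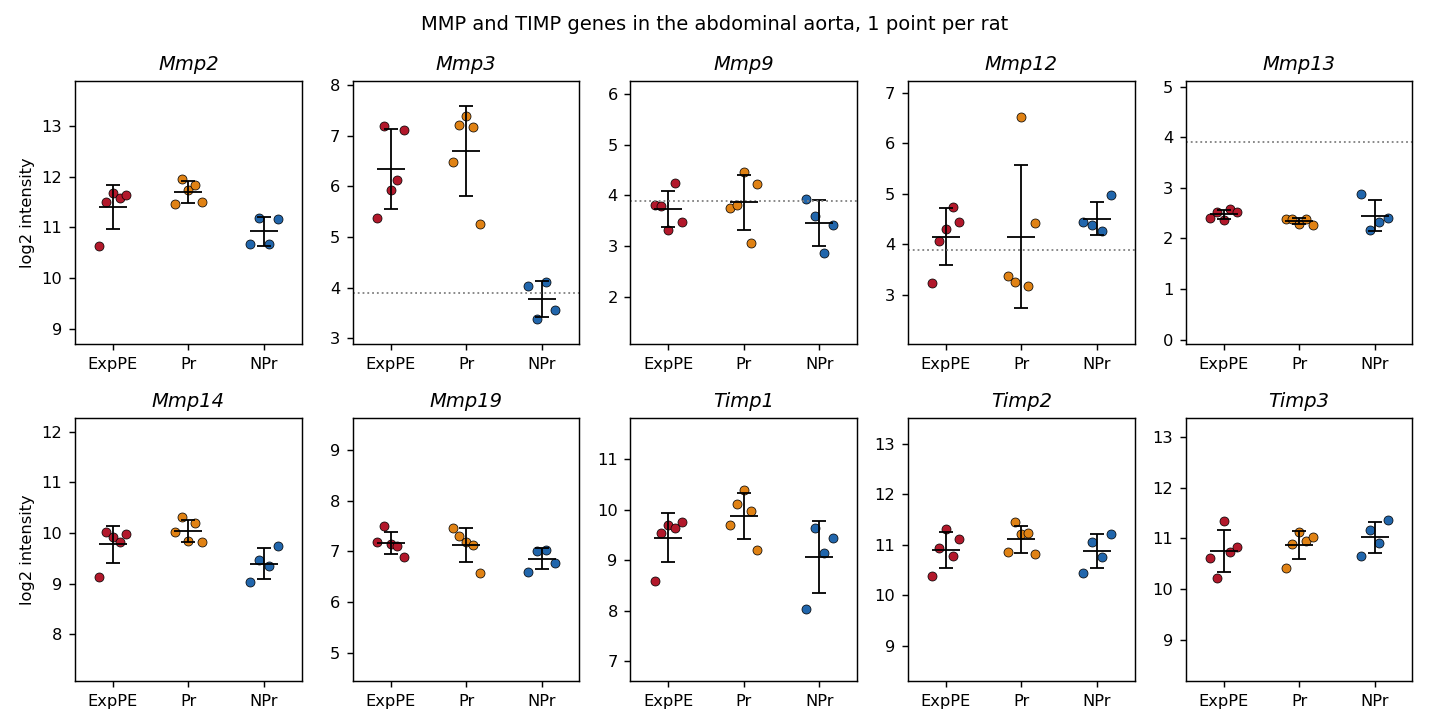
Log2 intensity (y axis) of the 10 MMP and TIMP genes in ExpPE (n = 5), Pr (n = 5) and NPr (n = 4) rats (x axis), with 1 point per rat, the group mean as a long bar and the SD as whiskers; the dotted line at 3.90 is the background. The panels span the same number of log2 units, and only for Mmp3 do all 10 pregnant rats lie above all 4 NPr rats.

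In rats Mmp3 lies in a cluster of 10 MMP genes on chromosome 8, in the order Mmp13, Mmp12, Mmp1b, Mmp3, Mmp1, Mmp10, Mmp8, Mmp27, Mmp20 and Mmp7 in RefSeq. All 10 were measured. The other 9 did not pass the test in these comparisons. Their differences lay between -0.36 and 0.60 both in ExpPE vs. NPr and in Pr vs. NPr, with smallest unadjusted p-values of 0.106 and 0.0960. The nearest neighbours differed by 0.17 (Mmp1b, SE 0.24) and -0.09 (Mmp1, SE 0.15) in ExpPE vs. NPr, and by 0.42 (Mmp1b, SE 0.24) and -0.24 (Mmp1, SE 0.15) in Pr vs. NPr. For 6 of the 9 genes all 3 group means were below the background, so a change there may not have been detectable with this array.

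**Figure D2:**
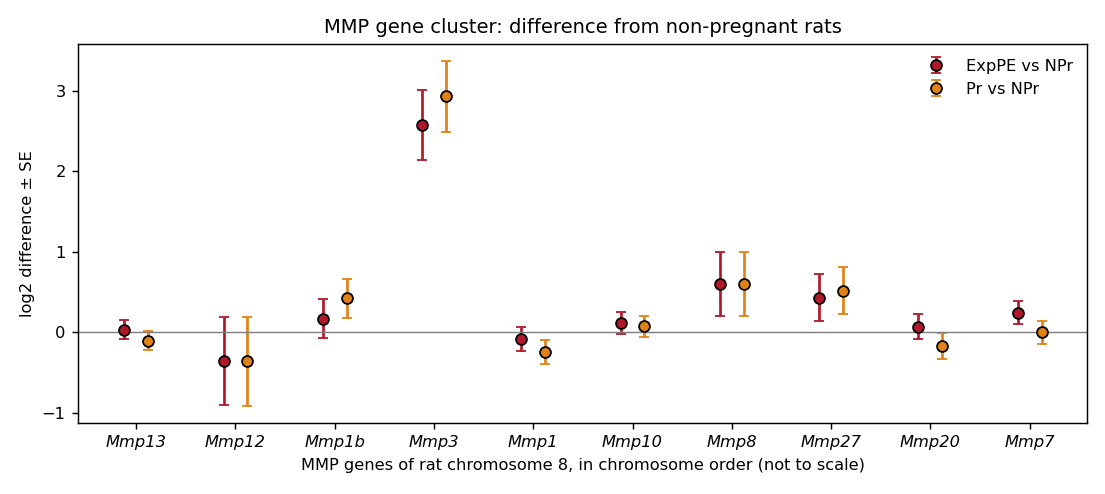
Log2 difference ± SE (y axis) from NPr rats of the 10 MMP genes of rat chromosome 8, in chromosome order and not to scale (x axis), for ExpPE rats (left point of each pair) and Pr rats (right point). Mmp3 stands at 2.58 and 2.93, and the other 9 genes lie between -0.36 and 0.60.

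Many MMP promoters carry a site for AP-1, the Fos and Jun dimer, which is known as a route by which cytokines induce these genes. The window of 250 bases before to 50 after the gene start was read for the members from RefSeq (GRCr8), where 6 of the 10 were found; Mmp2, Mmp9, Mmp14 and Mmp19 were not in the table. The AP-1 motif TGAGTCA, which reads TGACTCA on the opposite strand, was searched on both strands. It occurred once in Mmp3, Mmp12 and Mmp13, starting 71, 87 and 66 bases before the start used there, and not in Timp1, Timp2 or Timp3. Of 33469 promoters of this length 1550 (4.63%) hold it. The windows of the 3 MMP genes are shown because they share the motif and the cluster, and Mmp3 is the one that was called; the capitals mark the motif, and all are on the plus strand (Mmp3 chr8:12925031-12925330, Mmp12 chr8:12866402-12866701, Mmp13 chr8:12782579-12782878).
Mmp3: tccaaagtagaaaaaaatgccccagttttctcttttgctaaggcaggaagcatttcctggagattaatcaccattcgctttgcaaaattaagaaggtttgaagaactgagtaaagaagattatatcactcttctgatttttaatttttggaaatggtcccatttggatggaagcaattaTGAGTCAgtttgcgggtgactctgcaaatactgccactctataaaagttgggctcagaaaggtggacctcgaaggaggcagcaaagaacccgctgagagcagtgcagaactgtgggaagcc
Mmp12: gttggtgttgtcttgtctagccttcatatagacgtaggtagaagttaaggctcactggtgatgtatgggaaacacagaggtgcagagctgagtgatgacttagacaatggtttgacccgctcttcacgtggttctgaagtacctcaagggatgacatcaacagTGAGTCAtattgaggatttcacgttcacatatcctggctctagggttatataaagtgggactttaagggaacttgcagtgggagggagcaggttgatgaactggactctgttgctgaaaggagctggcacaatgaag
Mmp13: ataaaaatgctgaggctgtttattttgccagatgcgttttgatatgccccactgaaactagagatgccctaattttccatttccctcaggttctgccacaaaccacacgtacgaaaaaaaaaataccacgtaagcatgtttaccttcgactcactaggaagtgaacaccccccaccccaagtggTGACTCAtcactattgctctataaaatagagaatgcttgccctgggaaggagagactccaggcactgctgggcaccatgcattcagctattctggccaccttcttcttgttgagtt
A match is a description of the letters and not a site of binding. Of these 3 genes with the motif, Mmp3 was the only one called in any comparison at an adjusted p under 0.05. Mmp13 was at the background in all 14 rats.

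The remaining proteases of the list differed less, or lay at the background. Mmp2 (gelatinase A, which cuts basement membrane and denatured collagen) was 10.64, 11.50, 11.67, 11.59 and 11.64 in ExpPE rats. It was 11.46, 11.95, 11.74, 11.84 and 11.51 in Pr rats, and 10.67, 11.19, 10.67 and 11.16 in NPr rats. All 5 Pr rats and 4 of 5 ExpPE rats were above the highest NPr rat, while ExpPE animal 1 was below the lowest. In Pr vs. NPr Mmp2 was 0.77 higher (SE 0.22, 1.71-fold), with an unadjusted p of 0.00328 and an adjusted p of 0.333. In ExpPE vs. NPr it was 0.48 higher (SE 0.22, 1.399-fold, unadjusted p = 0.0450, adjusted p = 0.640). The ExpPE minus Pr difference was -0.29 (interval -0.74 to 0.15), and -0.10 without ExpPE animal 1.

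Mmp14 (membrane type 1 MMP, which activates the Mmp2 precursor at the cell surface together with Timp2) had levels of 9.14, 10.02, 9.93, 9.83 and 9.99 in ExpPE rats. Its levels were 10.02, 10.33, 9.85, 10.20 and 9.82 in Pr rats, and 9.03, 9.46, 9.34 and 9.75 in NPr rats. The pattern was that of Mmp2, with all Pr rats above all NPr rats and ExpPE animal 1 far below the other 4. Mmp14 was 0.65 higher in Pr vs. NPr (SE 0.19, 1.57-fold, unadjusted p = 0.00479, adjusted p = 0.398). In ExpPE vs. NPr the difference was 0.38 (SE 0.19, interval -0.03 to 0.80, adjusted p = 0.640).

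Mmp12 (macrophage metalloelastase) was 3.25, 4.06, 4.30, 4.73 and 4.44 in ExpPE rats. It was 3.38, 3.26, 6.52, 3.19 and 4.43 in Pr rats, and 4.44, 4.38, 4.26 and 4.98 in NPr rats. A single rat, Pr animal 3, stood above all others, and it also had the highest mean of the macrophage markers, 9.11. Pr animal 2, with a macrophage mean of 8.72, had Mmp12 at 3.26. For deviations from the group means the r of Mmp12 with the macrophage mean was 0.53. Without ExpPE animal 1 and Pr animal 3 it was 0.0045. Mmp12 differed by -0.36 (SE 0.55) in ExpPE vs. NPr and by -0.36 (SE 0.55) in Pr vs. NPr. Without Pr animal 3 the Pr vs. NPr difference was -0.95 (SE 0.32, unadjusted p = 0.0115, adjusted p = 0.729), and ExpPE was 0.59 above Pr (SE 0.31, adjusted p = 0.780).

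Mmp9 (gelatinase B, a product of neutrophils and macrophages) was at or below the background in 10 of 14 arrays, with ranges of 3.32 to 4.25 in ExpPE, 3.06 to 4.47 in Pr and 2.86 to 3.94 in NPr rats. Mmp13 (collagenase-3, a collagenase of rodent tissues) lay at or below it in all 14, between 2.18 and 2.88. No difference of these genes was detectable at this signal. Mmp19 (an MMP outside the chromosome 8 cluster) lay well above it, at 6.90 to 7.51 in ExpPE, 6.58 to 7.46 in Pr and 6.60 to 7.04 in NPr rats. Its differences of 0.31 in ExpPE vs. NPr (SE 0.17, adjusted p = 0.640) and 0.28 in Pr vs. NPr (SE 0.17, adjusted p = 1.00) did not pass the test.

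Among the inhibitors Timp1 had the largest difference. Timp1, a secreted inhibitor of most soluble MMPs, had levels of 8.59, 9.53, 9.71, 9.64 and 9.75 in ExpPE rats. Its levels were 9.70, 10.10, 10.39, 9.97 and 9.20 in Pr rats, and 8.04, 9.63, 9.13 and 9.44 in NPr rats. The groups overlapped, since Pr animal 5 lay among the NPr rats, and NPr animal 1 was the lowest of all. Timp1 was 0.81 higher in Pr vs. NPr (SE 0.33, 1.76-fold, unadjusted p = 0.0260, adjusted p = 0.804) and 0.38 higher in ExpPE vs. NPr (SE 0.33, adjusted p = 0.710). Without NPr animal 1 the differences were 0.47 in Pr vs. NPr and 0.04 in ExpPE vs. NPr. The unadjusted p of Pr vs. NPr was above 0.05 without Pr animal 2 (0.0523), Pr animal 3 (0.0653) or NPr animal 1 (0.124).

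Timp2 (which blocks Mmp2 and also takes part in its activation) ranged between 10.37 and 11.31 in ExpPE, 10.81 and 11.45 in Pr, and 10.45 and 11.21 in NPr rats. Its differences were 0.03 in ExpPE vs. NPr (interval -0.42 to 0.48) and 0.24 in Pr vs. NPr (interval -0.21 to 0.69). Timp3 (an inhibitor that binds to the matrix) ranged between 10.21 and 11.35 in ExpPE, 10.41 and 11.12 in Pr, and 10.66 and 11.36 in NPr rats. It differed by -0.28 in ExpPE vs. NPr (interval -0.75 to 0.20) and by -0.15 in Pr vs. NPr (interval -0.62 to 0.33). Changes of up to about these bounds cannot be told from none with 4 and 5 rats per group.

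**Figure D3:**
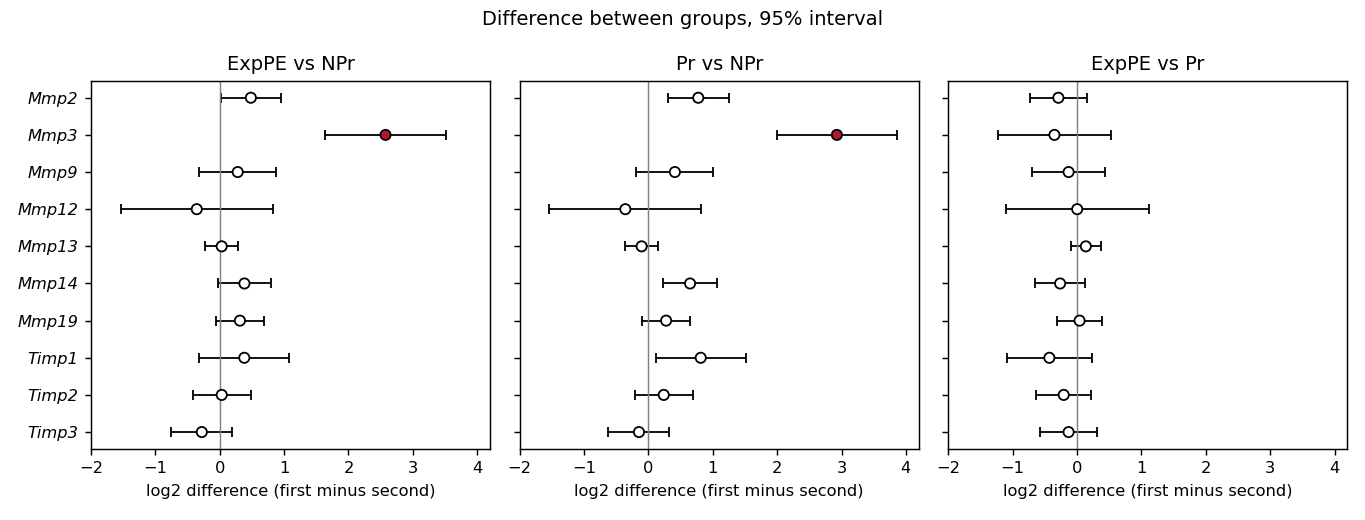
Log2 difference (x axis, first group minus second) with its 95% interval for the 10 members (y axis) in ExpPE vs. NPr, Pr vs. NPr and ExpPE vs. Pr; filled points passed an adjusted p of 0.05 in the limma fit. Mmp3 alone passed, at 2.58 and 2.93, and every interval of ExpPE vs. Pr includes 0.

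Counted over the list, 1 of 10 members (Mmp3) passed an adjusted p of 0.05 in ExpPE vs. NPr and 1 (Mmp3) in Pr vs. NPr, where 0.0982% and 0.212% of all genes did. In ExpPE vs. Pr none did, of the members or of all 19357 genes (0%). The smallest adjusted p there was 0.574, while 1642 genes and 0 members had an unadjusted p under 0.05. At the threshold of the study's methods (unadjusted p under 0.05 and a change over 1.4-fold) 1 member passed in ExpPE vs. NPr (Mmp3), 4 in Pr vs. NPr (Mmp3, Mmp2, Mmp14 and Timp1, all higher) and 0 in ExpPE vs. Pr. Of all genes 3.13%, 3.41% and 2.72% passed it in these comparisons. Mmp2 missed it in ExpPE vs. NPr by its fold. The groups did not overlap for 1 member in ExpPE vs. NPr (2.07% of all genes), 3 in Pr vs. NPr (2.71%; Mmp3, Mmp2 and Mmp14) and 0 in ExpPE vs. Pr (1.13%). The median difference of the members was 0.30 in ExpPE vs. NPr, 0.34 in Pr vs. NPr and -0.17 in ExpPE vs. Pr, beside 0.02, -0.02 and 0.02 over all genes.

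Setting a protease against its inhibitor within each array removes only a shift of equal size in both genes of that rat. The zero of such a difference is arbitrary, as the probes differ, and no test was run on it. Mmp2 minus Timp2 was 0.27 to 0.80 in ExpPE rats, 0.51 to 0.69 in Pr rats and -0.09 to 0.22 in NPr rats. Mmp14 minus Timp2 was -1.38 to -0.91 in ExpPE, -1.35 to -0.84 in Pr and -1.59 to -1.42 in NPr rats. Mmp3 minus Timp1 was -3.77 to -2.35 in ExpPE, -3.94 to -2.80 in Pr and -6.24 to -4.01 in NPr rats. In these pairs all pregnant rats, ExpPE animal 1 included, lay above all NPr rats. So they did for Mmp3 minus Timp3 (-5.42 to -3.02 in ExpPE, -5.78 to -3.68 in Pr, -7.80 to -6.63 in NPr). For Mmp9 minus Timp1 the groups overlapped, at -6.39 to -4.77 in ExpPE, -6.91 to -4.97 in Pr and -6.28 to -4.10 in NPr rats. Mmp3 alone also placed all pregnant rats above all NPr rats, so its pairs with Timp1 and Timp3 add little. For Mmp2 minus Timp2 and Mmp14 minus Timp2 the nearest pregnant and NPr rats were close (0.27 and 0.22, and -1.38 and -1.42). How often other pairs of genes separate the groups in this way was not counted.

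Within the groups, Mmp2, Mmp14, Timp1 and Timp2 varied together from rat to rat. Each value was taken as the deviation from its group mean, over the 14 arrays, and 45 pairs of members were correlated as a description. Pearson's r was 0.89 for Mmp2 and Timp2 (Spearman's rho 0.86), 0.88 for Mmp2 and Mmp14 (rho 0.74), 0.85 for Mmp14 and Timp2 (rho 0.82) and 0.85 for Timp1 and Timp2 (rho 0.82). ExpPE animal 1 was low in all 4 genes. Without the 2 arrays farthest from the median of the first gene the r values were 0.90, 0.78, 0.71 and 0.72. For Mmp14 and Timp1 r was 0.75 (rho 0.58) and dropped to 0.42, so that relation was weaker without those 2 arrays. For Mmp3 r was 0.42 with Mmp2, 0.46 with Mmp14 and 0.45 with Timp1, and 0.27, -0.01 and -0.06 without the 2 farthest arrays.

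The same 4 genes followed the mean of the adventitial fibroblast markers, among 120 pairs of a member and a marker list. The r of deviations was 0.84 for Mmp2, 0.86 for Mmp14, 0.86 for Timp1 and 0.82 for Timp2. Spearman's rho was lower, at 0.53, 0.71, 0.53 and 0.77. Without the 2 farthest arrays (ExpPE animal 1 and Pr animal 5) the r was 0.61, 0.71, 0.80 and 0.73. With the macrophage marker mean the r of the 4 genes was 0.58, 0.55, 0.74 and 0.63. It was 0.42, 0.66, 0.61 and 0.55 without ExpPE animal 1 and Pr animal 3. Mmp2, Mmp14 and Timp2 ran opposite to the adipocyte markers (r = -0.86, -0.78 and -0.82, and -0.84, -0.60 and -0.72 without the 2 farthest arrays). Of the 9 adipocyte markers 8 were lower in ExpPE vs. NPr (median of the list -0.41) and 8 in Pr vs. NPr (median -0.33). In each comparison 1 of them passed the study threshold, Ucp1, the uncoupling protein of brown fat (-2.07 and -2.13, adjusted p = 0.640 and 0.848). Mmp19 followed the endothelial markers (r = 0.75, rho 0.85, and r = 0.79 without ExpPE animal 2 and NPr animal 3). It also followed the skeletal muscle fibre markers (r = 0.65, and 0.54 without Pr animal 1 and NPr animal 3). Timp3 followed the smooth muscle markers (r = 0.82, and 0.68 without the 2 farthest, ExpPE animal 2 and Pr animal 1). Without those 2 arrays the r with the smooth muscle markers was 0.77 for Mmp2, 0.80 for Mmp14 and 0.77 for Timp2 as well, against 0.52, 0.36 and 0.57 over all 14. The fibroblast marker mean itself was 9.97 to 10.85 in ExpPE, 10.46 to 10.95 in Pr and 10.41 to 10.82 in NPr rats. Of the 7 measured fibroblast markers 0 passed the study threshold in ExpPE vs. NPr and 1 in Pr vs. NPr. These arrays share their tissue composition and normalization. The part of the fibroblast, macrophage and adipocyte content in the differences of Mmp2, Mmp14 and Timp1 was not tested.

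**Figure D4:**
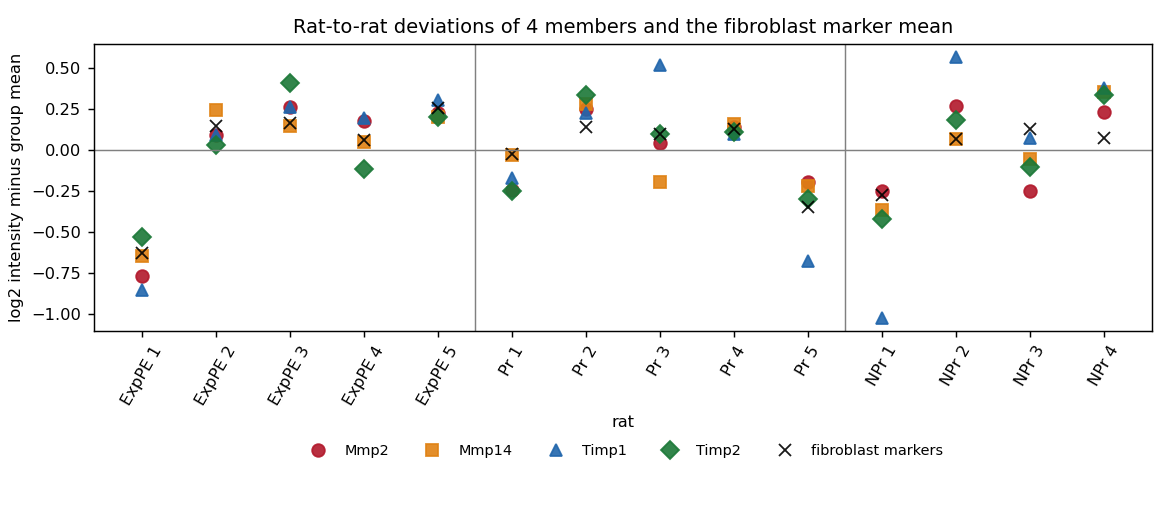
Deviation of log2 intensity from the group mean (y axis) for Mmp2, Mmp14, Timp1, Timp2 and the mean of the adventitial fibroblast markers in each of the 14 rats (x axis, ExpPE, Pr and NPr from left to right). ExpPE animal 1 is low in all of them, with the fibroblast mean at -0.63.

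Macrophage markers moved in the same direction as Mmp3. Their mean over 13 measured genes of 14 was 7.66 to 8.61 in ExpPE rats, 8.12 to 9.11 in Pr rats and 7.55 to 7.92 in NPr rats. All 13 were higher in ExpPE vs. NPr, of which 2 passed the study threshold and 1 (Siglec1, 1.55 higher) the adjusted p. All 13 were higher in Pr vs. NPr, where 9 passed the study threshold and 1 (Siglec1, 1.93 higher) the adjusted p. The list's median differences were 0.34 and 0.68, against 2.58 and 2.93 for Mmp3. One defining marker, Marco, had an NPr mean at or below the background. Within groups the r of Mmp3 with the macrophage mean was 0.64 (Spearman's rho 0.49). It was 0.48 without the 2 farthest arrays. With the adventitial fibroblast mean the r was 0.69 (rho 0.66), and 0.27 without ExpPE animal 1 and Pr animal 5. Skeletal muscle fibre markers were also higher in ExpPE vs. NPr (12 of 12, median 2.48, 1 past the study threshold, 0 past the adjusted p). Their r with Mmp3 within groups was -0.05. Red cell markers (7 of 7, median 1.12) and markers of sympathetic neurons and chromaffin cells (7 of 7, median 1.68) were higher there too, with 0 past either threshold. The r of the red cell markers with Mmp3 within groups was 0.40, and 0.21 without the 2 farthest arrays. Neutrophil marker means were 4.14 to 4.78 in ExpPE, 4.19 to 4.76 in Pr and 4.12 to 4.84 in NPr rats, with 0 of 12 past either threshold. For 6, 6 and 7 of these 12 genes the group mean was at or below the background in ExpPE, Pr and NPr. The part of macrophage, fibroblast, muscle fibre, red cell, chromaffin cell and B cell content in the rise of Mmp3 was not tested.

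The genes most like Mmp3 over the 14 arrays were sought among all genes, by Pearson's r. They were Oas2 (r = 0.93), Masp1 (0.92), Ntrk2 (0.92), Ifi27l2b (0.92) and Oasl (0.90). Oas2 and Oasl belong to the interferon-induced oligoadenylate synthetase family, Ifi27l2b to an interferon-induced family, Masp1 is a serine protease of the lectin pathway of complement, and Ntrk2 is a receptor of brain-derived neurotrophic factor. For deviations from the group means r was 0.58 for Oas2, 0.64 for Masp1, 0.81 for Ntrk2, 0.56 for Ifi27l2b and 0.41 for Oasl. An r over all 14 arrays includes the step between groups. Genes picked by it therefore tend to differ in the same comparisons as Mmp3, and their calls are a description only. Oas2 was 1.57 higher in ExpPE vs. NPr and 1.85 higher in Pr vs. NPr, and Ifi27l2b 1.78 and 2.18 higher, all at an adjusted p under 0.05. Oasl also passed in both, with adjusted p-values of 0.00163 and 0.000430. Masp1 passed in Pr vs. NPr (1.62 higher, adjusted p = 0.00981) and not in ExpPE vs. NPr (1.36, adjusted p = 0.0652). Ntrk2 passed in neither, with 0.65 in ExpPE vs. NPr (adjusted p = 0.640) and 0.91 in Pr vs. NPr (adjusted p = 0.120).

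Of the rest of the MMP system, no gene passed the adjusted p in any comparison. Of 17 other measured MMPs and Timp4, 1 passed the study threshold in ExpPE vs. NPr, the membrane-anchored Mmp25 (0.58 higher, adjusted p = 0.640). None passed it in Pr vs. NPr. In ExpPE vs. Pr 1 passed, the membrane type Mmp15 (0.75 higher, adjusted p = 0.574). The median differences of this list were 0.16, 0.07 and 0.04.

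Of the 15 other inhibitors and activators, 1 passed the study threshold, Pcolce (procollagen C-endopeptidase enhancer) in Pr vs. NPr, with 0.61 (adjusted p = 0.850). Lrp1, an endocytic receptor that clears several MMPs and TIMPs, was 0.39 higher in ExpPE vs. NPr and 0.42 higher in Pr vs. NPr, both below the fold limit. The list's median differences were 0.10, 0.11 and -0.08 in ExpPE vs. NPr, Pr vs. NPr and ExpPE vs. Pr. Of 11 plasminogen system genes, Plau (urokinase, which turns plasminogen into plasmin, an activator of Mmp3 and other precursors) passed the study threshold. It was 0.60 higher in Pr vs. NPr (adjusted p = 0.838) and differed by -0.52 in ExpPE vs. Pr (adjusted p = 0.574), while in ExpPE vs. NPr 0 of 11 passed. The medians of this list were -0.02, 0.01 and -0.09.

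Further lists held ADAMTS genes, ADAM genes, and cathepsins with cystatins. Adamts2 (a procollagen N-propeptidase) was the only 1 of 18 ADAMTS genes past the study threshold, 0.91 higher in Pr vs. NPr (adjusted p = 0.517). Of 11 ADAM genes Adam12 passed in ExpPE vs. NPr (0.52 higher, adjusted p = 0.640) and in Pr vs. NPr (0.72 higher, adjusted p = 0.261), and Adam22 in ExpPE vs. Pr (0.55 higher, adjusted p = 0.574). Of 17 cathepsins and cystatins 3 passed in Pr vs. NPr, namely Cst7 (1.14 higher), Ctsk (cathepsin K, a collagenase, 0.65 higher) and Ctss (cathepsin S, an elastase of macrophages, 0.73 higher). In ExpPE vs. Pr Ctsk differed by -0.53, and in ExpPE vs. NPr 0 passed. The cathepsin list's median differences were 0.12, 0.28 and -0.17.

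Of 22 measured matrix substrates 1 passed the study threshold in ExpPE vs. NPr, Fbln1 (fibulin-1, a matrix glycoprotein, 0.65 higher, adjusted p = 0.640). In Pr vs. NPr 2 passed, Fbln1 (0.82 higher, adjusted p = 0.539) and Vcan (versican, a proteoglycan of the vessel wall, 0.72 higher, adjusted p = 0.916), and in ExpPE vs. Pr none did. The substrates' median differences were 0.03, 0.16 and -0.17. Of 24 inducing signals and AP-1 genes 0 passed in ExpPE vs. NPr and 2 in Pr vs. NPr. These were Il6, a cytokine that acts on vascular cells (1.44 higher, adjusted p = 0.794), and Il1rn, the antagonist of the interleukin-1 receptor (0.81 higher, adjusted p = 0.926). Their median differences were 0.07, 0.04 and -0.09.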

How the data were processed

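RNA of 14 abdominal aortas was hybridised by the authors to Affymetrix Rat Gene 1.1 ST arrays. Per the labels and the study's methods, the authors cleaned the aortas of surrounding tissue, normalized the arrays together by RMA with quantile normalization and assigned probes to Entrez genes by a custom definition. The deposited intensity of a gene is on the linear scale, and its log2 was analysed for 19357 genes with no filter. The genome build of the array definition is not given in the sources used here. The same table holds columns of the authors' own comparisons (fold changes, p-values and q-values), which were not used, and 0 other per-sample columns were set aside. The second deposited table holds the same intensities, to within 7.2e-10 on the log2 scale, under titles that exchange the groups of 10 arrays.

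Groups were taken from the column names. A mean per group was fitted to all 14 arrays with limma 3.58.1 in R 4.3.3 (eBayes with an intensity trend), with Benjamini-Hochberg adjustment over the 19357 genes. The fit was checked on simulated data. Intervals are 95% intervals of the limma fit. Nothing states how arrays were divided over batches, and the meaning of a code in the array names is not given in the sources used here. The study's methods call their moderated statistic paired, but the sources used here do not say what was paired. The fits here were unpaired, apart from a replicate block run as an alternative. Whether the numbers in the titles pair the animals is not known. Over 13 same-numbered pairs, the correlation of deviations ranged from -0.40 to 0.40.

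Named genes were all 10 members, up to 4 genes per list and comparison by the smallest p, and for Mmp3 the 5 genes with the highest r. Where a gene of these was not past a threshold it was mostly summarised in the counts. Mmp1, Mmp1b, Mmp10, Mmp8, Mmp20 and Mmp7 were named as neighbours of Mmp3, and Marco after its values were seen. Members and lists were chosen with earlier results of these data known. Alternatives were other variance priors including the intensity-based moderated statistic of the study's methods, a fit of 2 groups only, a replicate block, array weights, a filter at the median intensity (9678 genes), recentred or requantiled arrays, a pseudocount of 16, the groups by title, and arrays left out. The omission of the 4 fibre-rich arrays was chosen after seeing the data. Promoters came from RefSeq (GRCr8). Python 3.11.15 with pandas 2.3.3, numpy 2.4.6 and matplotlib 3.10.9 was used.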

Additional observations from a re-analysis of the deposited data

Results flagged for a closer look

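ExpPE animal 1 stood apart from the other 4 ExpPE rats in 3 of the 10 members, each time as the lowest. Its log2 intensity was 10.6 for Mmp2 (next lowest 11.5), 9.14 for Mmp14 (next lowest 9.83) and 8.59 for Timp1 (next lowest 9.53). The gap was 0.84, 0.78 and 0.82 of the range of the group, above Dixon's critical value. In all 30 groups of 4 or 5 rats were looked at, and chance marks about 1 in 20. The 3 genes vary together between rats, so that they count as less than 3 separate signals. In the same rat the adventitial fibroblast marker mean was the lowest of all 14, at 9.97, and skeletal muscle fibre markers were at 9.90. The means of the markers of sympathetic neurons and chromaffin cells (9.09), adipocytes (10.97) and mesothelium (4.95) were the highest of all 14 there.

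Without this rat Mmp2 was 0.68 higher in ExpPE vs. NPr (unadjusted p = 0.00155, adjusted p = 0.183 by limma), Mmp14 0.54 higher (adjusted p = 0.226) and Timp1 0.60 higher (adjusted p = 0.409). With it the differences were 0.48, 0.38 and 0.38.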

How the results depend on the processing

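Mmp3 in Pr vs. NPr passed the adjusted p under every one of the 27 alternatives run (0.000277 to 0.0472, differences of 2.04 to 3.29). In ExpPE vs. NPr its difference stayed positive, at 1.73 to 2.93, but its adjusted p lay above 0.05 under 16 of 27 alternatives. There the count of members past the adjusted p was 0, not 1, with the replicate block (2.66, adjusted p = 0.108), quantile normalization once more (0.0508), the pseudocount of 16, without ExpPE animals 1 and 2 (0.0626) and without the fibre-rich arrays, and 0 to 1 over single rats left out. Members past the study threshold in ExpPE vs. NPr were 1, but 3 with quantile normalization once more, without ExpPE animals 1 and 2 and without the fibre-rich arrays, 4 with the groups by title, and 1 to 3 over single rats left out. They were 4 in Pr vs. NPr, but 1 with the groups by title, and 3 to 5 over single rats left out. With array weights 3 members passed the adjusted p in Pr vs. NPr, Mmp3, Mmp2 (0.72, adjusted p = 0.0438) and Mmp14 (0.65, adjusted p = 0.0373), where 211 and not 41 of all genes did. Counts over all genes moved more. At the study threshold they were 605 in ExpPE vs. NPr, 660 in Pr vs. NPr and 527 in ExpPE vs. Pr. In ExpPE vs. NPr they became 1052 with array weights, 1050 without ExpPE animals 1 and 2, 327 above the median intensity, 317 with the pseudocount and 361 to 1205 without single rats. In Pr vs. NPr they became 1022 with array weights. In ExpPE vs. Pr they became 169 above the median intensity, 189 with the pseudocount and 337 to 1103 without single rats. At the adjusted p the 19 genes of ExpPE vs. NPr became 11 without the fibre-rich arrays, 41 by title and 8 to 22 without single rats, and the 41 genes of Pr vs. NPr became 23, 19 and 23 to 62. Whether the numbers in the titles pair the rats is not known. The replicate block left 19, 53 and 0 genes past the adjusted p, and apart from Mmp3 in ExpPE vs. NPr it changed no call of a member at either threshold.

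With the groups by title the ExpPE minus Pr differences had the other sign, 0.29 for Mmp2, 0.35 for Mmp3, 0.13 for Mmp9, -0.0016 for Mmp12, -0.14 for Mmp13, 0.26 for Mmp14, -0.039 for Mmp19, 0.43 for Timp1, 0.21 for Timp2 and 0.13 for Timp3. Small differences also turned elsewhere, and the cause was not tested. Mmp13 in ExpPE vs. NPr was -0.011 in arrays centred on their median, -0.0075 after quantile normalization once more, -0.11 by title, -0.00053 without the fibre-rich arrays and -0.059 to 0.18 without single rats. In Pr vs. NPr it was 0.049 with array weights, 0.031 by title and -0.20 to 0.040 without single rats. Timp2 in ExpPE vs. NPr was -0.010 in centred arrays and -0.11 to 0.16 without single rats. In ExpPE vs. Pr Mmp12 was -0.015 in centred arrays, -0.12 after quantile normalization once more, -0.10 with the pseudocount and -0.24 to 0.59 without single rats. There Mmp19 was -0.050 with array weights, -0.078 without ExpPE animals 1 and 2 and -0.10 to 0.12 without single rats, Timp3 was 0.093 without ExpPE animals 1 and 2 and -0.28 to 0.0025 without single rats, and Mmp9 was -0.33 to 0.019 without single rats.

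Precision is limited by 4 and 5 arrays per group, and for Mmp9, Mmp13 and NPr Mmp3 by a signal at the background.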
